A study of Danio rerio with 6 samples.

Results

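The genes described here encode the collagens, the laminins and other proteins of the extracellular matrix, with the metalloproteinases that cut them and the inhibitors of those enzymes. They were chosen by gene symbol, with earlier results of these data known, from probe sets with a single symbol in the platform annotation. They came to 49 of the 8793 named genes on the array, read by 61 of its 15502 probe sets. By role they were 6 fibrillar collagens, 5 fibril-associated collagens, 7 other collagens, 11 basement membrane genes, 9 glycoproteins, 2 small leucine-rich proteoglycans and 9 metalloproteinases or their inhibitors.

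Trunk and tail tissue of zebrafish larvae was measured on 6 short-oligonucleotide arrays when the muscle phenotype first became visible, labelled 3.5 days after fertilization. Of these arrays 3 held RNA of runzel mutants, whose mutation the series title places in titin, the giant spring protein of the sarcomere, and 3 held RNA of wildtype siblings. The labels give no allele, and they do not say whether siblings carried a copy of the mutation. Head, heart and gut had been cut away from mutants and siblings and the remaining muscle pooled, so trunk skin, notochord and vessels could stay in the samples. The design pairs each mutant sample with siblings of its own clutch, 3 clutches in all, without saying which array belongs to which.

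The matrix around larval muscle has distinct layers. Fibrillar collagens assemble into tensile fibres in skin, in the myosepta that anchor muscle fibres, in bone and, as type II, in cartilage and the notochord sheath. Each muscle fibre is also wrapped in a basement membrane, a sheet of laminin and network collagen that is tied to the cytoskeleton through integrins and the dystrophin complex. Loss of laminin or of type VI collagen chains causes muscular dystrophy in humans, and fibronectin, tenascin and the metalloproteinases are part of matrix remodelling after injury.

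Values are linear signal, and differences are runzel minus wildtype sibling on log2(signal + 50), which understates changes of dim probe sets. Of the 61 probe sets, 46 lay above the brightness filter and were tested, covering 40 genes. Arrays with the same number were taken as pairs because their deviations from the group means correlated at 0.551, 0.389 and 0.526, and the limma fit with that number as a block is called paired. Skeletal muscle markers were present as labelled, with 20 of 20 measured genes above the filter and a summed signal of 1492040 to 1708390 in runzel and 1576330 to 1909600 in wildtype siblings. The ratio of 3′ to 5′ actin control signal, a reading of RNA integrity, averaged 2.49 ± 0.398 over runzel arrays and 1.51 ± 0.195 over wildtype sibling arrays (SD, n = 3). It ran from 2.03 to 2.78 in runzel and from 1.37 to 1.74 in wildtype siblings, without overlap (exact permutation p = 0.1, the smallest 3 against 3 arrays allow). For the second control, GAPDH, the ratio averaged 1.5 ± 0.0374 over runzel arrays and 1.57 ± 0.0391 over wildtype sibling arrays (exact permutation p = 0.2), so the controls differed in direction. The skeletal actin gene acta1a itself fell in runzel (-0.78, paired limma adjusted p = 0.00313), and the part of either ratio in the matrix values was not tested. Wildtype array 1 was the lowest wildtype array for 23 of the 40 tested matrix genes (57.5%), against 32.1% of all tested genes. Values without it are given for some of these genes, not for all.

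The unpaired limma fit called 0 of the 46 matrix probe sets at an adjusted p of 0.05, as it called 0 of all 9301 tested probe sets (0%). At an unadjusted p under 0.05 it held 12 of the 46, against 4.81% of all probe sets, and the paired fit held 17, against 12.7%. The paired fit called 2 of the 46, with 1.19% of all probe sets called. These were the fibronectin gene fn1b, which rose (0.72% of all probe sets called higher), and the collagen XVIII gene col18a1a, which fell (0.473% called lower). Over the 40 genes the median log2 difference was -0.11, and 27 lay below 0, beside a median of 0.0027 and 49.5% below 0 over all 6136 tested genes. After quantile normalization 26 of the 40 lay below 0, with a median of -0.086, beside a median of -0.00765 over all tested genes. With that scaling 50.6% to 54.9% of all tested probe sets lay below 0, depending on their brightness range. As deposited, the runzel arrays lay wholly below the wildtype arrays for 9 of the 46 matrix probe sets, against 4.6% of all probe sets. They lay wholly above them for 5, against 5.89%. Among the 9 were both postnb probe sets and a probe set each of sparc, col1a2 and col1a1a. These had a mean log2 of 14 or more, where 83.3% of all probe sets had a difference below 0.

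**Figure D1:**
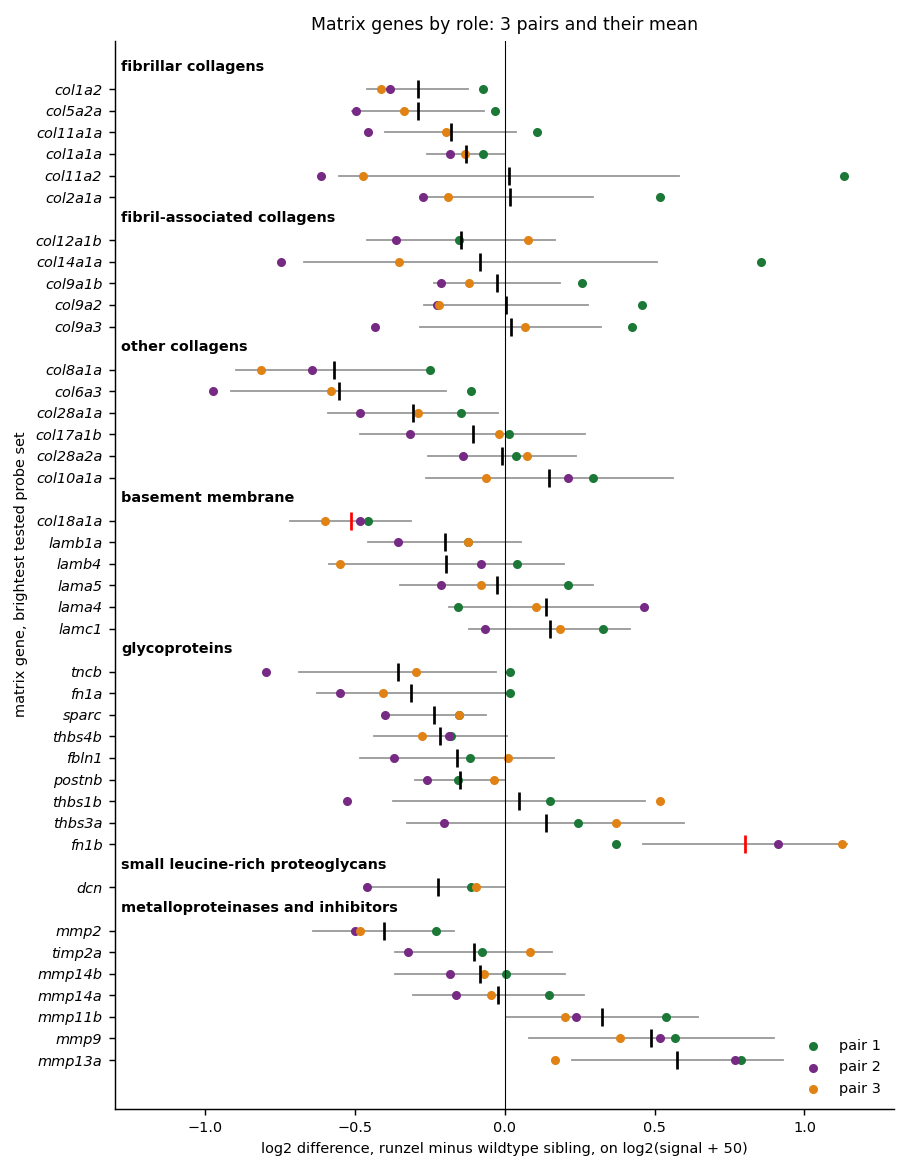
Log2 difference of each of the 40 tested matrix genes at its brightest tested probe set (x axis, runzel minus wildtype sibling on log2(signal + 50)), grouped by role. Dots are the 3 pairs of arrays, ticks their mean (red where the paired limma fit called the gene, fn1b at 0.80 and col18a1a at -0.51) and grey lines the paired fit's 95% confidence intervals.

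The median difference of the 6 fibrillar collagen genes was -0.154, with 4 below 0, and none passed. The chains of type I collagen, the main fibre of skin, bone and tendon, and of type V, which starts type I fibrils, had lower signal in runzel by a small margin. The type I chain gene col1a2 read 52079, 44896 and 45636 on runzel arrays 1 to 3, against 54767, 58563 and 60824 on wildtype arrays 1 to 3. The groups did not overlap, and all 3 pairs were lower in runzel. The log2 difference was -0.29 ± 0.189 (SD over 3 pairs) with a 95% interval of -0.46 to -0.12, and it did not pass (paired limma adjusted p = 0.126). Its second probe set gave -0.20, with overlapping groups.

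The partner chain gene col1a1a read 64562, 58204 and 66849 in runzel and 67852, 65984 and 73272 in wildtype siblings. The groups overlapped, though each pair was lower in runzel, and the log2 difference of -0.13 ± 0.0547 did not pass (paired limma adjusted p = 0.405). A second probe set of col1a1a gave -0.17 without overlap. Both are of the kind whose probes match more than a single transcript, so their signal can include related genes. The type V gene col5a2a read 14771, 12965 and 13057 in runzel and 15122, 18298 and 16490 in wildtype siblings. It too was lower in every pair and without overlap, at -0.29 ± 0.234, and did not pass (paired limma adjusted p = 0.26).

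The differences of these bright genes stand beside a shift of all bright probe sets. Over all 389 tested probe sets with a mean log2 of 14 or more the median difference was -0.0936 and 83.3% lay below 0, and of the 11 matrix probe sets in that range 9 lay below 0, with a median of -0.172. Quantile normalization brought the median of all such probe sets to -0.0022 and that of the matrix probe sets to -0.055. At their brightest probe sets it moved col1a2 from -0.29 to -0.17 and col1a1a from -0.13 to -0.04. The gene col5a2a, at a mean log2 of 13.88 just below that range, moved from -0.29 to -0.23.

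**Figure D2:**
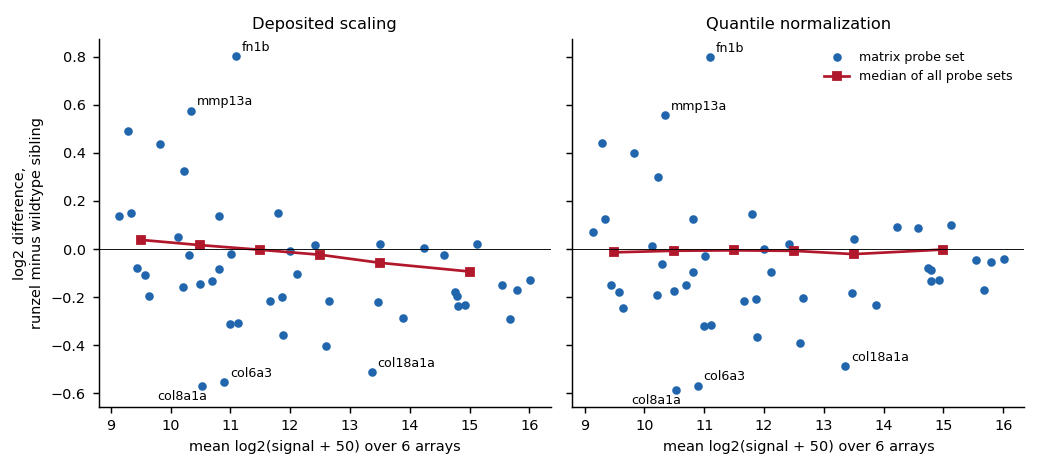
Log2 difference, runzel minus wildtype sibling, of each tested matrix probe set (blue) against its mean log2(signal + 50) over 6 arrays, with deposited scaling on the left and quantile normalization on the right. Red squares are medians of all tested probe sets in brightness bins. With deposited scaling they run from 0.038 for the dimmest bin to -0.094 for the brightest, and they lie between -0.021 and -0.0022 after quantile normalization.

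For 5 collagen genes of cartilage and of the notochord sheath, col2a1a, col11a2, col9a1b, col9a2 and col9a3, differences were near 0 over all 6 arrays. Other collagen genes of these tissues were lower, col11a1a at -0.18 and col8a1a, described below, at -0.57. The type II gene col2a1a read 35488, 35945 and 35915 in runzel, against 24763, 43451 and 40918 in wildtype siblings. The runzel arrays were nearly equal, and wildtype array 1 was far below the other 2. The pairs differed by 0.52, -0.27 and -0.19, a mean log2 difference of 0.02 ± 0.434. Its interval was -0.26 to 0.29 in the paired fit (paired limma adjusted p = 0.973) and -0.40 to 0.43 in the unpaired fit. For the type XI chain gene col11a2, whose product co-assembles with type II, the runzel arrays read 5149, 5589 and 5698 and the wildtype arrays 2323, 8577 and 7925. The type IX genes col9a1b, col9a2 and col9a3, whose products sit on the surface of type II fibrils, had differences of -0.02, 0.00 and 0.02 with paired SDs of 0.25 to 0.431.

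Wildtype array 1 was the lowest of its group for these 5 collagen genes, by 0.344 (col9a3) to 1.81 (col11a2) on the log2 scale against the mean of the other 2. It was also the lowest for col11a1a (a difference of -0.268), col6a3, lamc1 and tncb, so the low reading was not confined to the 5 genes. Among the lists it was lowest for 6 of 31 fin fold and epidermis genes, 4 of 14 fibroblast and tendon genes and 0 of 6 macrophage and neutrophil genes. By contrast it was lowest for 16 of 20 skeletal muscle genes and for 12 of 14 matrix receptor and adhesion genes. The same held for 6 of 10 tested notochord and cartilage genes outside the matrix set, among them shha and tbxta. Of these 10 markers sox9b rose and cav1 fell in the paired fit, and the summed signal of all 14 measured markers was 80227 to 95761 in runzel and 86108, 115321 and 88486 on wildtype arrays 1 to 3. Without that array, the median difference of the 5 genes was -0.24 in place of 0.015, and without pair 1 it was -0.22. Whether the wildtype pools differed in tissue content was not tested, and in pooled tissue fewer cells of a type and less RNA per cell cannot be told apart. The genes were grouped as cartilage collagens after their values were seen. The second type XI chain gene, col11a1a, overlapped between groups at -0.18 ± 0.282.

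**Figure D3:**
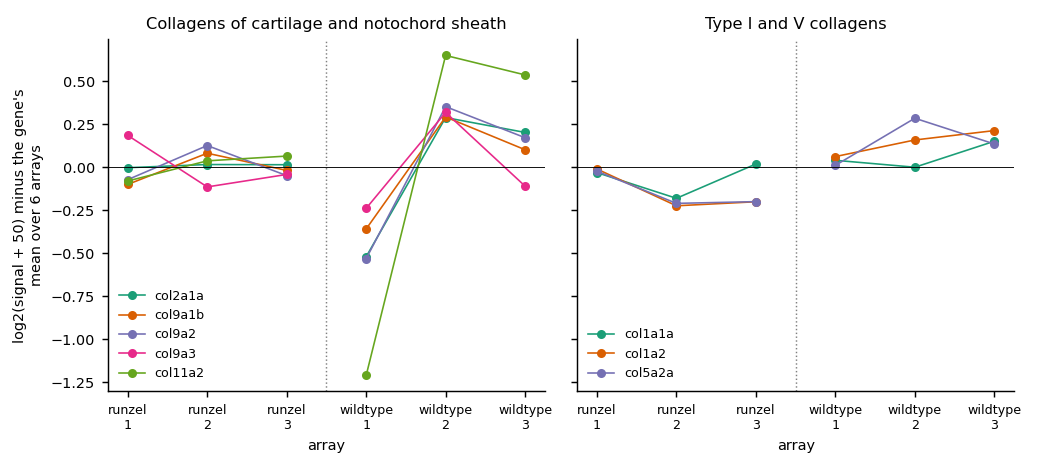
Log2(signal + 50) minus the gene's mean over 6 arrays (y axis) on each array, runzel left and wildtype sibling right, for 5 collagens of cartilage and notochord sheath and 3 type I and V collagens. On wildtype array 1 the first 5 genes lie below the other wildtype arrays, col11a2 by 1.81, while for col1a1a, col1a2 and col5a2a its difference from them was -0.0353, -0.124 and -0.199.

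The other fibril-associated genes were col12a1b and col14a1a, whose products coat type I fibrils in tendon and fascia. Their differences were -0.15 ± 0.221 (interval -0.46 to 0.17) and -0.08 ± 0.835 (interval -0.67 to 0.51). For col14a1a the pairs differed by 0.86, -0.75 and -0.35, and the unpaired interval was -1.09 to 0.92. The signal of col14a1a spread from 269.2 to 1135 in runzel and from 485.7 to 989.9 in wildtype siblings, so its groups overlapped widely.

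Among the other collagens, 5 of 6 tested genes lay below 0. The gene col6a3 encodes a chain of type VI collagen, a beaded filament next to the muscle basement membrane. It read 1563, 1350 and 1689 in runzel, against 1693, 2696 and 2545 in wildtype siblings. The groups did not overlap, with the lowest wildtype array barely above the highest runzel array. The log2 difference of -0.55 ± 0.431, a level 0.681 times that of the siblings, did not pass (paired limma adjusted p = 0.18). It was -0.34 without pair 2 and -0.76 without wildtype array 1.

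The network collagen gene col8a1a, expressed in the zebrafish notochord, read 980.2, 1279 and 1227 in runzel and 1174, 2025 and 2193 in wildtype siblings. Runzel was lower in all 3 pairs, but 2 runzel arrays lay above wildtype array 1, the same array in which the cartilage collagens were low. The log2 difference was -0.57 ± 0.29 with all arrays (paired limma adjusted p = 0.125) and -0.84 without wildtype array 1. The von Willebrand domain collagen gene col28a1a had -0.31 ± 0.169 and its relative col28a2a -0.01 ± 0.115, neither passing.

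The skin hemidesmosome collagen gene col17a1b had -0.11 and col10a1a, expressed in bone-forming cells of zebrafish, had 0.15. A dimmer, untested probe set of col17a1b had 0.02, the opposite sign. The signal of col10a1a followed the pair, at 541.3, 1264 and 356.6 in runzel and 431.6, 1084 and 374.1 in wildtype siblings. Array 2 of each group was the high one. Without runzel array 2 alone the difference was -0.32, and without the whole of pair 2 it was 0.12.

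In the basement membrane group, 1 of 6 tested genes passed, in the paired fit. The gene col18a1a, whose product carries heparan sulfate and is cut to release endostatin, fell in runzel. It read 9776, 7331 and 9304 on runzel arrays 1 to 3, against 13439, 10253 and 14135 on wildtype arrays 1 to 3. Every runzel array lay below every wildtype array, and the means were 8804 ± 1297 and 12609 ± 2070 (SD, n = 3). The 3 pairs differed by -0.46, -0.48 and -0.60 on the log2 scale, a mean of -0.51 ± 0.077 and 0.701 times the level of the siblings.

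The call on col18a1a came from the pairing (paired limma adjusted p = 0.0215, unpaired 0.883, exact permutation p = 0.1, the smallest 3 against 3 arrays allow). It was lost without pair 1, 2 or 3 (paired limma adjusted p = 0.183, 0.076 and 0.0501), with the pair as a random block (0.117) and without limma's intensity trend (0.273). Quantile normalization left it at -0.49 (paired limma adjusted p = 0.026). Epidermis and vessels have basement membranes of their own. Of 31 tested epidermis and fin fold markers outside the matrix set 27 lay below 0 and 5 fell in the paired fit. Over all 6136 tested genes 49.5% lay below 0 and 36 fell in the paired fit. After quantile normalization 25 of the 31 markers lay below 0 and 4 fell in the paired fit, with 10 of the 31 in the brightest range. With that scaling 50.6% to 54.9% of all tested probe sets lay below 0, by brightness range, and the paired fit called 103 in either direction. The overlapping summed signal of the epidermis and fin fold markers was 557790 to 692812 in runzel and 633685 to 770033 in wildtype siblings. Endothelium markers summed to 9032 to 12267 in runzel and 14102 to 15582 in wildtype siblings over 7 measured genes, of which klf2a and aqp1a.1 fell in the paired fit. Most of that sum on every array came from aqp1a.1. It read 6776, 4667 and 6823 in runzel and 10762, 8255 and 8507 in wildtype siblings. The receptor genes kdrl and flt4 had -0.16 and -0.13 with overlapping groups, tie1 had 0.23 and was higher in runzel without overlap, and none of these passed. The genes tek and erg were too dim to be tested. The part of either tissue in the col18a1a value was not tested.

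Laminins are trimers of an alpha, a beta and a gamma chain, and they are the scaffold of the sheet. None of the 5 tested laminin genes passed in either fit, and their median difference was -0.03. The beta chain gene lamb1a read 3144, 3403 and 3778 in runzel, against 3426, 4369 and 4117 in wildtype siblings. It was lower in every pair while its groups overlapped, at -0.20 with an interval of -0.46 to 0.06. Its neighbour on chromosome 25, lamb4, with 0 protein-coding genes between them in the RefSeq gene order of assembly GRCz12tu, had -0.19 (interval -0.59 to 0.20).

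The gamma chain gene lamc1 read 2946, 3931 and 4432 in runzel and 2335, 4116 and 3892 in wildtype siblings, a difference of 0.15 with an interval of -0.12 to 0.42. Without wildtype array 1 alone it was -0.11, the opposite sign, but without the whole of pair 1 it was 0.06. The alpha chain genes lama4, known from endothelium, and lama5, known from epithelia, had 0.14 (interval -0.19 to 0.46) and -0.03 (interval -0.35 to 0.30). Both changed sign without runzel array 2, to -0.024 for lama4 and 0.12 for lama5. All 5 laminin intervals of the paired fit span 0, and each bound lies within 0.59 of it. In the unpaired fit all 5 also span 0 but are wider, at -0.76 to 0.37 for lamb4 and -0.39 to 0.69 for lamc1.

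The other 5 basement membrane genes, col15a1a, col15a1b, lamb2l, lamc3 and nid1a, were too dim to be tested. The gene nid1a, whose product links laminin to collagen IV, read 158.6, 120.7 and 89.0 in runzel and 72.3, 86.4 and 50.4 in wildtype siblings. Every runzel value lay above every wildtype value (exact permutation p = 0.1). The gamma chain gene lamc3 read 240.9, 194.3 and 220.3 in runzel and 299.8, 257.3 and 354.8 in wildtype siblings, so its groups did not overlap either (exact permutation p = 0.1). The other 3 overlapped.

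Fibronectin is a dimeric glycoprotein that binds integrins, collagen and fibrin, and in the zebrafish somite it lines the muscle segment borders. Its gene fn1b had the largest increase among the 40 tested matrix genes. It read 2082, 3090 and 3624 on runzel arrays 1 to 3, against 1596, 1618 and 1636 on wildtype arrays 1 to 3. The wildtype arrays were nearly equal, and each runzel array stood above them by a different margin. The mean signal was 2932 ± 783.2 (SD, n = 3) over runzel arrays and 1617 ± 19.9 over wildtype sibling arrays, a 1.74-fold increase or 0.80 ± 0.387 on the log2 scale.

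The call on fn1b was made in the paired fit and not in the unpaired fit (paired limma adjusted p = 0.0342, unpaired 0.81, exact permutation p = 0.1). Since its wildtype arrays were nearly equal, pairing could remove little of its spread (SD over pairs 0.387, against 0.077 for col18a1a). The call was lost without pair 2 or pair 3 (paired limma adjusted p = 0.162 and 0.0741), with the random block (0.0865), without the intensity trend (0.248) and under median centring (0.0624). The log2 difference ran from 0.63 without runzel array 3 to 1.03 without runzel array 1.

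The 3 probe sets of the paralogue fn1a disagreed in direction. The brightest read 1751, 1643 and 1946 in runzel and 1727, 2425 and 2594 in wildtype siblings, a difference of -0.31 ± 0.295 that did not pass. The second read 918.9, 1214 and 894.5 in runzel and 790.9, 740.4 and 652.6 in wildtype siblings. That was higher in every pair and without overlap, at 0.44 ± 0.237, and did not pass (paired limma adjusted p = 0.296). The dimmest, untested, had 0.80. No single direction could therefore be given for fn1a.

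**Figure D4:**
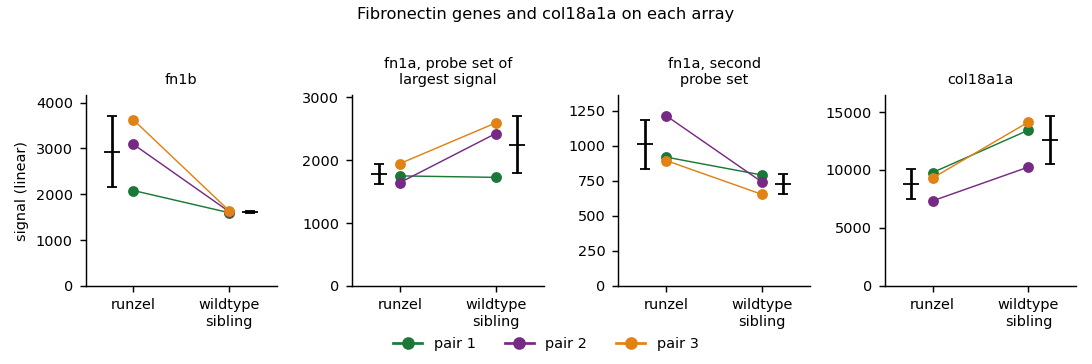
Linear signal on each array for fn1b, for both tested probe sets of fn1a and for col18a1a, runzel left and wildtype sibling right in each panel. Coloured lines join the arrays of a pair, and black bars are the group mean ± SD (n = 3). The 3 runzel arrays lie above the wildtype arrays for fn1b and below them for col18a1a.

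None of the other glycoprotein genes passed, and 5 of those 7 lay below 0. The gene sparc, whose product binds collagen and calcium, read 30631, 27070 and 28121 in runzel and 34031, 35746 and 31258 in wildtype siblings. Its groups did not overlap, at -0.23 ± 0.143. The periostin gene postnb, for an adhesion protein of collagen-rich tissue, had -0.15 ± 0.112 and -0.24 ± 0.0478 at its probe sets, also without overlap. These 3 probe sets lay in the brightest range described above, where most probe sets of the array lay below 0. After quantile normalization sparc had -0.13 and postnb -0.047 and -0.13.

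The gene thbs4b, whose product organises the matrix at zebrafish myotendinous junctions, had -0.21 ± 0.0536, lower in each pair and with overlapping groups. The tenascin gene tncb read 3137, 2673 and 4170 in runzel and 3095, 4674 and 5128 in wildtype siblings, at -0.36 ± 0.411. Its first pair was level and the second gave most of the difference. Without wildtype array 1 the difference of tncb was -0.57. The genes fbln1, thbs1b and thbs3a had -0.16, 0.05 and 0.14, with overlapping groups. A dimmer, untested probe set of fbln1 had 0.08, the opposite sign. Decorin, a proteoglycan that binds type I fibrils and is encoded by dcn, read 11815, 7993 and 12195 in runzel and 12768, 10997 and 13027 in wildtype siblings. Its difference was -0.22 ± 0.205, with overlap. It was -0.027 without runzel array 2 alone and -0.10 without the whole of pair 2. The related bgnb was too dim to be tested.

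The metalloproteinase genes split in direction. The collagenase gene mmp13a read 1474, 1975 and 1258 in runzel, against 831.5, 1139 and 1113 in wildtype siblings. The gelatinase gene mmp9 read 677.5, 790.9 and 615.1 in runzel, against 440.7, 537.8 and 459.6 in wildtype siblings. The stromelysin-3 gene mmp11b read 1372, 1327 and 1179 in runzel, against 929.8, 1117 and 1018 in wildtype siblings. For all 3 genes each runzel array lay above each wildtype array.

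The log2 differences were 0.58 ± 0.352 for mmp13a, 0.49 ± 0.0949 for mmp9 and 0.33 ± 0.184 for mmp11b. None passed (paired limma adjusted p = 0.148, 0.302 and 0.387, exact permutation p = 0.1 each). Without pair 3 mmp13a reached 0.78 and did pass (paired limma adjusted p = 0.0378). Without pair 1 or pair 2 it had 0.47 and 0.48 and did not pass (paired limma adjusted p = 0.575 and 0.434). Wildtype array 1 was the lowest wildtype array for mmp13a, mmp9 and mmp11b. Without it their differences were 0.44, 0.44 and 0.26. In zebrafish mmp9 and mmp13a are expressed in leukocytes and at wounds. Of the 14 macrophage and neutrophil markers measured outside the matrix set, 6 were bright enough to be tested, 4 of them above 0 and 0 called. The summed signal of all 14 was 18476 to 24431 in runzel and 16396 to 20292 in wildtype siblings. The receptor gene csf1ra, the scavenger receptor gene marco and the leukocyte antigen gene ptprc were among the 8 dim ones. The part of leukocytes in the metalloproteinase signal was not tested.

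The gelatinase gene mmp2, made by fibroblasts, had the opposite sign. It read 5868, 4762 and 5484 in runzel and 6881, 6758 and 7684 in wildtype siblings at its brighter probe set. The groups did not overlap, at -0.40 ± 0.153 or 0.756 times the sibling level, and the difference did not pass (paired limma adjusted p = 0.128). A dimmer probe set gave -0.21 with overlap. The membrane-type genes mmp14a and mmp14b, whose products activate the mmp2 enzyme, had -0.02 and -0.08 with intervals of -0.31 to 0.26 and -0.37 to 0.20. Its inhibitor gene timp2a had -0.10 (interval -0.36 to 0.16). Fibroblast and tendon markers summed to 41927 to 44862 in runzel and 46938 to 52693 in wildtype siblings. Of 14 tested markers 10 lay below 0 and 0 passed, and their part in the mmp2 value was not tested.

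**Figure D5:**
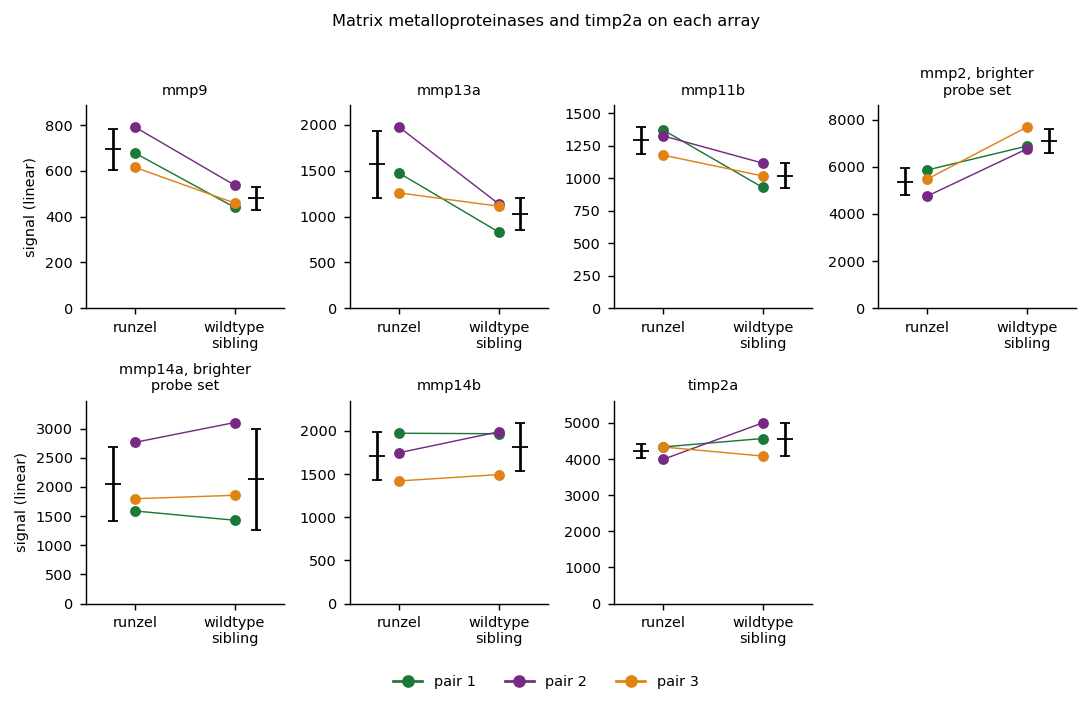
Linear signal on each array for 6 metalloproteinase genes and the inhibitor gene timp2a, runzel left and wildtype sibling right in each panel. Coloured lines join the arrays of a pair, and black bars are the group mean ± SD (n = 3). The runzel arrays lie above the wildtype arrays for mmp9, mmp13a and mmp11b and below them for mmp2, while the groups overlap for mmp14a, mmp14b and timp2a.

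The remaining dim genes were col10a1b, mmp17b and timp2b. The gene col10a1b read 211.5, 171.7 and 187.2 in runzel and 101.8, 134.3 and 50.2 in wildtype siblings. It was higher in every pair without overlap (exact permutation p = 0.1), near the low end of the array's range. The other 2 overlapped between groups.

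Genes that make, bind or control the matrix were read from 4 lists. Of 18 tested collagen processing genes, 10 lay below 0 and 0 passed in either fit. The smallest unadjusted paired p belonged to the prolyl hydroxylase family gene p3h4 (log2 difference -0.32) and to p4ha1b, which encodes a subunit that hydroxylates collagen (0.36). The summed signal of all 19 measured ran from 56403 to 59451 in runzel and from 56474 to 60999 in wildtype siblings, overlapping ranges.

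Of 14 tested receptor and adhesion genes 0 passed. The integrin-linked adaptor gene lims2 was closest, at 2280, 2900 and 2623 in runzel and 1533, 2001 and 1767 in wildtype siblings. The groups did not overlap and the pairs were alike, at 0.55 ± 0.0189 (paired limma adjusted p = 0.0686). The talin gene tln2a, whose product joins integrins to actin, had 0.55 ± 0.282 with overlap. Wildtype array 1 was the lowest wildtype array for both genes, and for tln2a it read 1092, against 2199 and 2080 on wildtype arrays 2 and 3.

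Of 17 tested genes of transforming growth factor beta signalling 0 passed. The transducer gene smad3b read 516.0, 586.1 and 994.1 in runzel and 321.0, 371.7 and 407.2 in wildtype siblings. The groups did not overlap, at 0.80 ± 0.341 (paired limma adjusted p = 0.14), and the matricellular target gene ccn1 had 0.47 ± 0.458 with overlap. Of 14 further matrix genes outside the set 0 passed. The smallest unadjusted paired p there belonged to and3, an actinodin of the larval fin fold, at 12556, 9630 and 13267 in runzel and 17205, 13853 and 14800 in wildtype siblings (-0.38 ± 0.194, paired limma adjusted p = 0.117), and to the keratocan gene kera at -0.48 ± 0.453.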

How the data were processed

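The deposited values are linear signal intensity, 1 per probe set and array, made by the authors with GeneChip Operating Software 1.2 at default parameters on a GeneChip Scanner 3000, per the labels' protocols. The summary method and scaling target are not given in the sources used here. Of 15617 probe sets, 115 controls were left out of tests. Symbols came from the platform annotation, and all 61 member probe sets matched a RefSeq gene of assembly GRCz12tu.

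Signal was analysed as log2(signal + 50). Probe sets under the 40th percentile of mean log2 (8.904) were left out, which kept 9301. The comparison used limma 3.58.1 under R 4.3.3 (empirical Bayes with an intensity trend, two-sided, Benjamini-Hochberg over all tested probe sets). The unpaired fit was primary. The paired fit has the replicate number as a block, and intervals are from the paired fit unless called unpaired. The numbers were taken as pairs from the correlations of same-numbered arrays in the report, because no label links them. Different numbers gave -0.401 to -0.152, negative by construction since a group's deviations cancel. The exact permutation test over 10 splits cannot go below 0.1, and the sign-flip test over 3 pairs not below 0.25. Each gene stands by its brightest tested probe set, or by every probe set where said.

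On simulated data of 9301 probe sets, the paired fit recovered 48 of 100 changes of 1 and 87 of 100 changes of 2 on the log2 scale. The unpaired fit recovered 38 and 91. Changes under 1, the size of every difference among the tested matrix genes, were not simulated.

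Members and lists were chosen with earlier results of these data known. Chosen by rule were members called in either fit and, per role, the 3 largest differences and the brightest gene. Not all of these have their array values printed. Of each pathway list, called genes or otherwise the 2 with the smallest unadjusted paired p were named. Other named genes were chosen after their values were seen. Scaling, pseudocount, filter, block, trend and left-out arrays were varied. With 3 arrays a group, precision is limited by their number, and p-values measure only the spread between these pools, which may be partly technical.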

Additional observations from a re-analysis of the deposited data

How the results depend on the processing

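The unpaired limma fit called 0 probe sets, and with the replicate block it called 111, of which 2 were matrix probe sets (col18a1a and fn1b). With the block, quantile normalization gave 103 and 2, and no intensity trend gave 3 and 0. The random block gave 19 and 0. Settings added after the data were seen, all with the block, gave 81 and 2 without the brightness filter, 102 and 2 with a filter at the 60th percentile, 107 and 2 with a pseudocount of 16, 113 and 2 with 200, and 93 and 1 (col18a1a) with median centring. Leaving out a pair gave 34, 29 and 149 over all probe sets (pairs 1 to 3), a single array 0 to 1, and either 0 to 1 among matrix probe sets, namely fn1b without pair 1 and mmp13a without pair 3. The median difference of the fibrillar collagens, -0.154, ran from -0.36 to -0.061 with an array or pair left out and was -0.059 after quantile normalization. That of the basement membrane genes, -0.11, was -0.026 with no filter or with the stricter one, with or without the block, and -0.164 under median centring. It ran from -0.148 (without runzel array 1) to -0.024 (without wildtype array 3) with an array left out, and from -0.192 (without pair 1) to -0.0091 (without pair 3) with a pair left out. Median centring moved the median of all genes to -0.051. Over arrays left out, scalings, trend and block settings, 18 of the 46 tested matrix probe sets (17 of 40 genes) changed sign at least once, and none was called there. The cause of these moves was not tested. No detection calls were used, so dim probe sets may lie near background.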
